A study of Mus musculus with 5 samples.

Results

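The AP-1 genes of the mouse lung were followed across 4 comparisons of wild type mice and mice lacking Cldn4, which encodes the epithelial tight junction protein claudin-4. The 10 genes were taken by symbol from a list that names Fos, Fosb, Fosl1 and Fosl2, Jun, Junb and Jund, and Atf3, Maff and Batf, and all 10 of them were present among the 21590 genes of each table. No expression value was used to choose them, although earlier results of these data were known when the list was drawn up. RNA of whole lungs was sequenced in 5 groups. KO_VILIhigh were Cldn4 knockout mice ventilated for 2 h at 40 cmH2O, a setting that overstretches and injures the lung (ventilator-induced injury, VILI), whose injury was greater than that of wild type mice. KO_VILIlow were knockout mice ventilated in the same way whose injury resembled that of wild type mice. WT_VILI were wild type mice ventilated in the same way, and KO_noVILI and WT_noVILI were knockout and wild type mice whose lungs were taken without ventilation. All groups had a mixed background of 129S6, C57BL/6 and BALB/c. The design text gives duplicates, 2 libraries a group, without saying whether they came from separate animals, so the p-values may measure technical spread. The 2 ventilated knockout groups were formed by the injury that followed, which limits what a difference between them can show. Age and sex are not among the labels used here.

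AP-1 is a family of transcription factors that bind DNA as pairs through a basic region and a leucine zipper. FOS proteins cannot pair with each other and need a JUN partner, while JUN proteins pair with FOS, with each other or with ATF proteins. Many of the genes are immediate early genes, switched on within minutes of growth factors, stretch, cytokines or cell stress without new protein synthesis, and their transcripts are short-lived. In lung, AP-1 is known for its part in the response of epithelium, endothelium and leukocytes to stretch and inflammation.

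Only the authors' comparison tables were used, so neither values of single lungs nor sequencing depth nor the spread of replicates can be given. Each table lists a log2 fold change, a log2 mean abundance in CPM (read counts scaled to a common library size), a p-value and an adjusted p-value from the authors' edgeR test, and a gene was called at an adjusted p of 0.05. The levels given per group were computed back from the fold change and the mean, and the standard error (SE) of a fold change was recovered as its size over the normal quantile of its p-value, so both are approximate. Levels of different genes are not on one scale per transcript length and are compared within a gene only. For the 10 genes, WT_VILI levels rebuilt from the 3 tables that hold this group differed by at most 0.21 on the log2 scale (Batf), and WT_noVILI levels from 2 tables by at most 0.11 (also Batf). In the knockout check, Cldn4 stood at 0.122, 0.0212 and 0.140 CPM in KO_VILIhigh, KO_VILIlow and KO_noVILI, against 139.7 CPM in WT_VILI and 9.38 CPM in WT_noVILI. Xist, a marker of female cells, stood at 2.56, 4.08 and 6.13 CPM in KO_VILIhigh, KO_VILIlow and WT_VILI, against 505 and 891 CPM in KO_noVILI and WT_noVILI. Ddx3y, a Y-linked gene, stood at 90.7, 107.1 and 115 CPM in KO_VILIhigh, KO_VILIlow and WT_VILI, against 0.421 and 0.234 CPM in KO_noVILI and WT_noVILI. Ventilation and sex therefore cannot be told apart in any comparison of ventilated with unventilated lungs.

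Promoter sequence is shown for the 4 genes whose upstream windows hold a searched motif and which were called in at least 1 comparison below. Sequences are RefSeq's, in build GRCm38.p6, while the reads were aligned to mm9. Each is the 250 bases before the transcription start, read 5′ to 3′ on the gene's strand, with motif matches in capitals. For Maff, which has 3 annotated starts, the window of the middle one is shown.
Fos, chr12:85473640-85473889, strand +: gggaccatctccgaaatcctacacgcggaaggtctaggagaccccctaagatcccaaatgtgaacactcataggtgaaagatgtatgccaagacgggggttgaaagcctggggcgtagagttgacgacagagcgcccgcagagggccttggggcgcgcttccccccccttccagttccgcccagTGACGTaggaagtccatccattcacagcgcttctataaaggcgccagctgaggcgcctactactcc
Atf3, chr1:191183334-191183583, strand -: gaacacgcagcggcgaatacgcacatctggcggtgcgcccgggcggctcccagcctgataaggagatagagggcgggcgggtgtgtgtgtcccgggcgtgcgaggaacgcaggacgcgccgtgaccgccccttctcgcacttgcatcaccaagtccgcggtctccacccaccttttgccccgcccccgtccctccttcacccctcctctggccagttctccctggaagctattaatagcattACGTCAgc
Maff, chr15:79347270-79347519, strand +: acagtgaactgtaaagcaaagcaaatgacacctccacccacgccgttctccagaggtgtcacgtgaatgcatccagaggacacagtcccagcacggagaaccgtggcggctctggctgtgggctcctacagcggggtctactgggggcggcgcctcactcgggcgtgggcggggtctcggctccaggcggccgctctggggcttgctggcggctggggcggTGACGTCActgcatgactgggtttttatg
Jun, chr4:95052223-95052472, strand -: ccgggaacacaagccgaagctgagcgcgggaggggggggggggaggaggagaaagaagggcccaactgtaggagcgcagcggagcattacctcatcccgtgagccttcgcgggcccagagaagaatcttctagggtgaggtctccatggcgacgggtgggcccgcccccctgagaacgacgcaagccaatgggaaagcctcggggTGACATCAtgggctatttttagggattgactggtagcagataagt

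Windows were found for 9 of the 10 genes, 11 windows in all; Fosl1 had none in the table. The motifs TGACGTCA (the cyclic AMP response element), TGANTCA (the AP-1 site), TGACATCA (the variant AP-1 site known from the Jun promoter) and the CArG box, bound by serum response factor, were searched on both strands, and TGACGT, contained in the first, was added after the windows had been seen. TGACGT was found upstream of Fos, Atf3, Maff and Batf, 4 of 9 genes, and in 6.47% of 32851 promoter windows of the same length. It lay 66 to 61 bases before the start of Fos and, on the other strand, 8 to 3 bases before the start of Atf3. The full TGACGTCA was found for Maff alone, 29 to 22 bases before the start, and in 1.55% of all windows. TGACATCA stood 45 to 38 bases before the start of Jun and at the same distance before another start of Maff, and in 2.93% of all windows. TGANTCA, present in 6.75% of all windows, and the CArG box, present in 1.47%, had no match in these 11 windows. A match is a description of the letters and no measure of binding.

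Fos was lower in the unventilated knockout than in the unventilated wild type and higher in the knockout with more injury than in the ventilated wild type, while WT_VILI over WT_noVILI did not pass the threshold. c-Fos, its product, is the classical immediate early AP-1 subunit. Fos stood at 908 CPM in KO_VILIhigh, 283 CPM in KO_VILIlow, 236 CPM in WT_VILI, 44.5 CPM in KO_noVILI and 179.8 CPM in WT_noVILI. The KO_VILIhigh level was the highest and the KO_noVILI level the lowest. In the authors' deposited table Fos was 3.81-fold higher in KO_VILIhigh than in WT_VILI (log2 fold change 1.93, SE 0.23, adjusted p = 1.14e-13, edgeR). It was 4.04-fold lower in KO_noVILI than in WT_noVILI in the authors' deposited table (log2 fold change -2.02, SE 0.46, adjusted p = 0.00121). The log2 fold change of WT_VILI over WT_noVILI was 0.37 (95% interval -0.34 to 1.09, adjusted p = 0.792) and that of KO_VILIlow over WT_VILI 0.23 (-0.17 to 0.63, adjusted p = 1) in the authors' deposited tables. The SE of Fos was well above the median of all genes at or above a mean log2 CPM of 1 in both tables that hold WT_noVILI (0.46 against 0.18 and 0.36 against 0.19), and below it in the tables of KO_VILIlow (0.20 against 0.24) and KO_VILIhigh (0.23 against 0.27).

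Fosb, whose product FosB pairs with JUN proteins like c-Fos, rose with ventilation of wild type lungs as well as in KO_VILIhigh. Whether it differs there from Fos was not tested. Fosb stood at 419.9 CPM in KO_VILIhigh, 109.6 CPM in KO_VILIlow, 93.2 CPM in WT_VILI, 10.5 CPM in KO_noVILI and 28.7 CPM in WT_noVILI. The 3 ventilated groups were all above the unventilated ones, with KO_VILIhigh well clear of the rest. Its log2 fold change was 2.20 in KO_VILIhigh over WT_VILI (SE 0.25, adjusted p = 6.2e-16), the highest of the 10 genes in the authors' deposited table. It was 1.70 in WT_VILI over WT_noVILI (SE 0.15, adjusted p = 4.43e-26) and -1.44 in KO_noVILI over WT_noVILI (SE 0.29, adjusted p = 8.19e-05) in the authors' deposited tables. KO_VILIlow over WT_VILI was at 0.25 (95% interval -0.14 to 0.65, adjusted p = 1, authors' deposited table).

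Fosl1 and Fosl2 encode Fra-1 and Fra-2, FOS proteins without the strong activation domain of c-Fos that usually appear later and last longer. Fosl1 stood at 77.0 CPM in KO_VILIhigh, 31.9 CPM in KO_VILIlow, 19.2 CPM in WT_VILI, 6.67 CPM in KO_noVILI and 6.06 CPM in WT_noVILI. KO_VILIhigh was the highest group, and the unventilated genotypes lay close together. Fosl1 was, in the authors' deposited tables, 4.43-fold higher in KO_VILIhigh than in WT_VILI (log2 2.15, SE 0.28, adjusted p = 1.11e-11) and 3.10-fold higher in WT_VILI than in WT_noVILI (log2 1.63, SE 0.28, adjusted p = 3.07e-07). KO_VILIlow over WT_VILI reached 0.88 in the authors' deposited table (95% interval 0.35 to 1.42) without passing the threshold (adjusted p = 0.0921), and KO_noVILI over WT_noVILI was at 0.14 (-0.45 to 0.73, adjusted p = 1).

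Fosl2 stood at 582 CPM in KO_VILIhigh, 498 CPM in KO_VILIlow, 324 CPM in WT_VILI, 107.7 CPM in KO_noVILI and 145 CPM in WT_noVILI. Both ventilated knockout groups lay above WT_VILI and near each other. Fosl2 was, in the authors' deposited tables, higher in KO_VILIhigh than in WT_VILI by 0.81 on the log2 scale (SE 0.23, adjusted p = 0.0254) and in WT_VILI than in WT_noVILI by 1.13 (SE 0.19, adjusted p = 7.61e-08). It stood at 0.56 in KO_VILIlow over WT_VILI (95% interval 0.18 to 0.94, adjusted p = 0.215) and at -0.43 in KO_noVILI over WT_noVILI (-0.81 to -0.06, adjusted p = 0.269) in the authors' deposited tables.

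Of the JUN genes, Junb was called in 3 of the 4 comparisons, and Jun and Jund in 1 each. JunB is an inducible subunit that can dampen or replace c-Jun, depending on its partner. Junb stood at 900.3 CPM in KO_VILIhigh, 374 CPM in KO_VILIlow, 237 CPM in WT_VILI, 72.9 CPM in KO_noVILI and 150.4 CPM in WT_noVILI. The order of the 5 groups was that of Fos, and also that of Fosb, Fosl2, Jund, Atf3 and Maff. By the authors' deposited tables Junb was 3.76-fold higher in KO_VILIhigh than in WT_VILI (log2 1.91, SE 0.21, adjusted p = 8.73e-16) and 2.06-fold lower in KO_noVILI than in WT_noVILI (log2 -1.05, SE 0.23, adjusted p = 0.000664). The rise in WT_VILI over WT_noVILI was 0.64 (SE 0.22, adjusted p = 0.0429), the closest to the threshold of the called genes in the authors' deposited table. KO_VILIlow over WT_VILI was at 0.63 (95% interval 0.24 to 1.01, adjusted p = 0.11, authors' deposited table).

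Jun encodes c-Jun, the main activating partner of FOS proteins, which is controlled to a large part by phosphorylation by JNK kinases. Jun stood at 936 CPM in KO_VILIhigh, 519 CPM in KO_VILIlow, 602 CPM in WT_VILI, 387 CPM in KO_noVILI and 407 CPM in WT_noVILI. It was the 1 gene of the 10 with a lower value in KO_VILIlow than in WT_VILI, at -0.28 on the log2 scale (95% interval -0.65 to 0.08, adjusted p = 1, authors' deposited table). By the authors' deposited tables Jun was higher in WT_VILI than in WT_noVILI by 0.55 (SE 0.15, adjusted p = 0.00539). It stood at 0.56 in KO_VILIhigh over WT_VILI (95% interval 0.16 to 0.97, adjusted p = 0.199) and at -0.07 in KO_noVILI over WT_noVILI (-0.36 to 0.21, adjusted p = 1) in the authors' deposited tables.

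Jund, whose product JunD is present in most cells at rest, stood at 910.1 CPM in KO_VILIhigh, 718 CPM in KO_VILIlow, 597 CPM in WT_VILI, 299.6 CPM in KO_noVILI and 317 CPM in WT_noVILI. By the authors' deposited table it was higher in WT_VILI than in WT_noVILI by 0.89 (SE 0.13, adjusted p = 1.99e-09). Jund stood at 0.53 in KO_VILIhigh over WT_VILI (95% interval 0.14 to 0.92, adjusted p = 0.223), at 0.20 in KO_VILIlow over WT_VILI (adjusted p = 1) and at -0.08 in KO_noVILI over WT_noVILI (adjusted p = 1) in the authors' deposited tables.

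Atf3 and Maff had the largest rises with ventilation of wild type lungs among the 10 genes. ATF3 is a stress-induced factor that pairs with JUN proteins and often represses inflammatory genes, and MAFF is a small MAF protein without an activation domain that pairs with CNC factors such as NRF2. Atf3 stood at 564 CPM in KO_VILIhigh, 229 CPM in KO_VILIlow, 218 CPM in WT_VILI, 14.9 CPM in KO_noVILI and 25.8 CPM in WT_noVILI. KO_VILIlow and WT_VILI lay side by side, with a log2 fold change of 0.05 (95% interval -0.36 to 0.45, adjusted p = 1) in the authors' deposited table. Atf3 was 8.45-fold higher in WT_VILI than in WT_noVILI (log2 3.08, SE 0.23, adjusted p = 1.01e-36) and 2.55-fold higher in KO_VILIhigh than in WT_VILI (log2 1.35, SE 0.21, adjusted p = 1.34e-07) in the authors' deposited tables. KO_noVILI over WT_noVILI was at -0.79 (95% interval -1.31 to -0.27, adjusted p = 0.0708, authors' deposited table).

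Maff stood at 410.0 CPM in KO_VILIhigh, 312 CPM in KO_VILIlow, 221 CPM in WT_VILI, 33.8 CPM in KO_noVILI and 37.5 CPM in WT_noVILI. All ventilated groups were far above both unventilated ones, which differed little. In the authors' deposited tables Maff was 5.87-fold higher in WT_VILI than in WT_noVILI (log2 2.55, SE 0.15, adjusted p = 9.49e-64) and 1.83-fold higher in KO_VILIhigh than in WT_VILI (log2 0.87, SE 0.20, adjusted p = 0.00155). It stood at 0.46 in KO_VILIlow over WT_VILI (95% interval 0.11 to 0.80, adjusted p = 0.376) and at -0.15 in KO_noVILI over WT_noVILI (adjusted p = 0.996) in the authors' deposited tables.

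Batf, known mainly from lymphocytes, where BATF pairs with JUN proteins and acts with IRF4, was called in none of the 4 comparisons. Batf stood at 6.83 CPM in KO_VILIhigh, 6.47 CPM in KO_VILIlow, 5.39 CPM in WT_VILI, 6.26 CPM in KO_noVILI and 3.14 CPM in WT_noVILI. Its highest fold change was in KO_noVILI over WT_noVILI, at 1.00 on the log2 scale (SE 0.33, adjusted p = 0.0699, authors' deposited table), the opposite direction to Fos, Fosb and Junb. The other log2 fold changes in the authors' deposited tables were 0.52 in KO_VILIhigh over WT_VILI (adjusted p = 1), 0.47 in KO_VILIlow over WT_VILI (adjusted p = 1) and 0.67 in WT_VILI over WT_noVILI (adjusted p = 0.474). The interval of KO_VILIhigh over WT_VILI ran from -0.33 to 1.36.

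**Figure D1:**
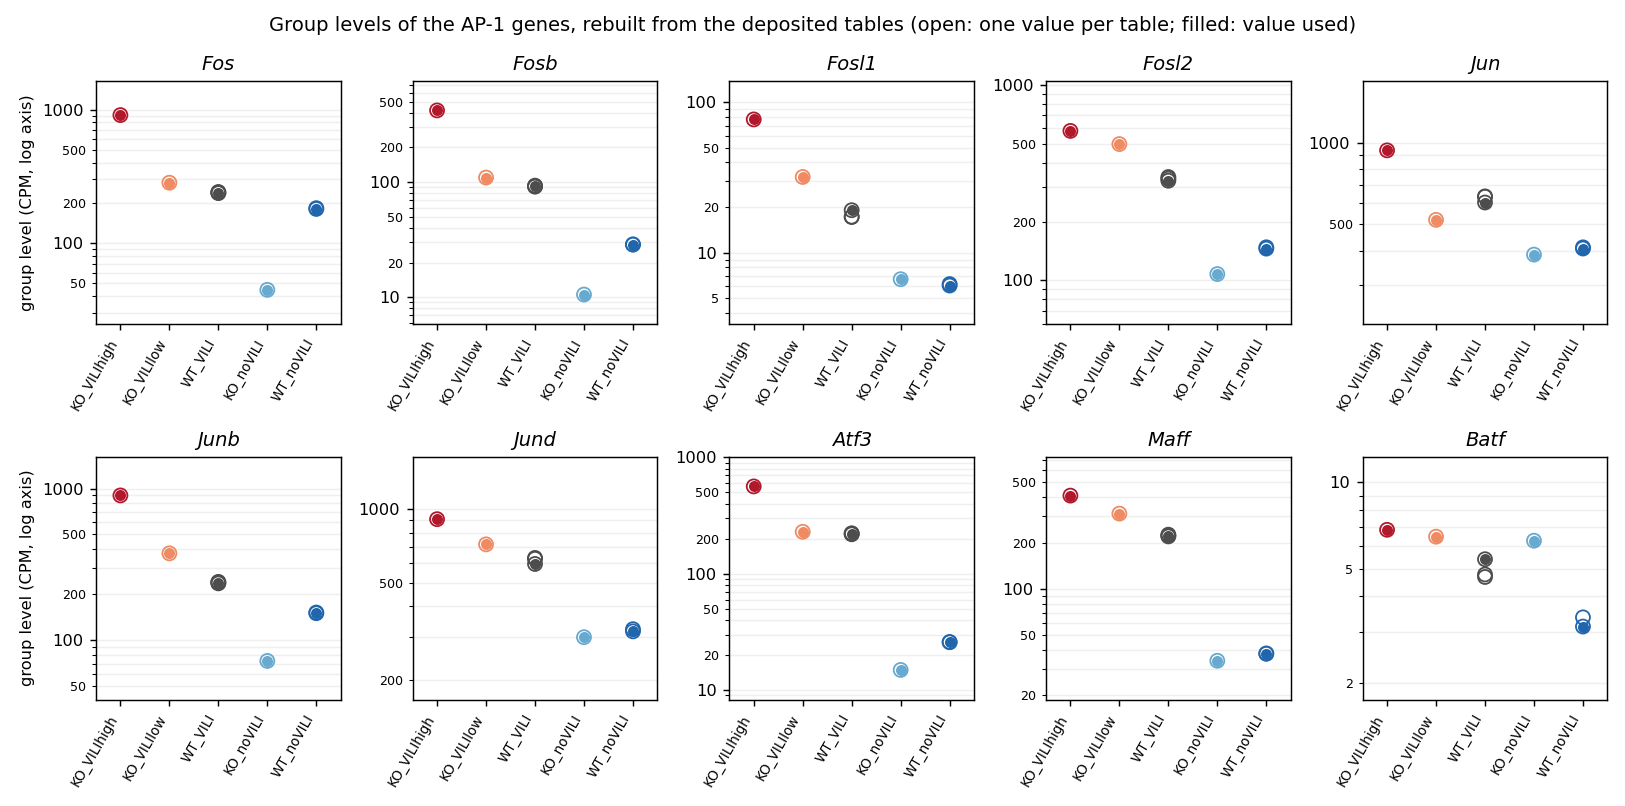
Level of each gene in each of the 5 groups, in CPM on a log axis, as rebuilt from the authors' deposited tables; open circles give the value from each table that holds the group, the filled circle the one used, and there are no error bars because no values per lung were used. KO_VILIhigh is the highest group for all 10 genes, though for Batf by little (6.83 CPM against 6.47 in KO_VILIlow and 6.26 in KO_noVILI). KO_noVILI lies below WT_noVILI for 8 of the 10 genes, of which Fos (44.5 against 179.8 CPM), Fosb and Junb were called. It lies above for Fosl1 and Batf.

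By comparison, 7 of the 10 genes were higher in KO_VILIhigh than in WT_VILI and none was lower in the authors' deposited table, beside 1.13% of all genes called higher and 0.435% called lower. These were Fos, Fosb, Fosl1, Fosl2, Junb, Atf3 and Maff, with a median of 1.11 over the 10 genes against 0 over 13724 genes at or above a mean log2 CPM of 1. The 7 genes did not include Jun and Jund. In bulk lung, more cells of a type and more RNA per cell cannot be told apart, and neutrophil markers moved in the same direction: 4 of 20 were higher and none lower by the authors' deposited table, and their summed level was 1384 CPM in KO_VILIhigh and 775 CPM in WT_VILI. Of these 20 markers Mpo, Elane and Prtn3, granule genes of neutrophil precursors, were under 1 CPM in every group. Heart muscle markers were higher in 3 of 18 cases, with 1151 CPM in KO_VILIhigh and 680.4 CPM in WT_VILI, and red blood cell markers in 4 of 9, with 3181 and 987 CPM in those groups. The part of these cells in the AP-1 levels was not tested.

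In KO_VILIlow compared with WT_VILI, 0 of the 10 genes passed the authors' edgeR threshold in the deposited table, beside 0.676% of all genes called higher and 0.296% called lower. At an unadjusted p under 0.05, Fosl1, Fosl2, Junb and Maff were higher, 4 of 10, and none was lower, beside 3.02% and 2.41% of all genes in the authors' deposited table. The median over the 10 genes was 0.36 against -0.01 over 13635 genes. Heart muscle markers, which pulmonary vein walls also express, were higher, by the authors' deposited table, for 15 of 18 genes, with a summed level of 1644 CPM in KO_VILIlow and 680.4 CPM in WT_VILI, and the neutrophil markers, 1 of 20 higher, summed to 1012 CPM in KO_VILIlow and 775 CPM in WT_VILI. B and T cell markers were lower for 7 of 20 genes by the authors' deposited table. Their part in the AP-1 values was not tested.

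In WT_VILI compared with WT_noVILI, 8 of the 10 genes were higher and none lower, beside 4.85% of all genes called higher and 4.23% called lower in the authors' deposited table. Fos and Batf did not pass. The median was 1.01 over the 10 genes against -0.02 over 13801 genes. Of the 8, Jun, Junb and Jund changed by less than 2-fold, so that 5 remained with a log2 fold change of at least 1 in the authors' deposited table. Neutrophil markers were higher for 12 of 20 genes by the authors' deposited table, with a summed level of 775 CPM in WT_VILI and 250.01 CPM in WT_noVILI, and endothelial markers were lower in 7 of 20 cases, with 7340.3 CPM in WT_VILI and 8717 CPM in WT_noVILI. Red blood cell markers were lower for 4 of 9 genes by the authors' deposited table, with 987 CPM in WT_VILI and 4061 CPM in WT_noVILI. The part of these cells in the rise of the AP-1 genes was not tested.

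Without ventilation, 3 of the 10 genes, Fos, Fosb and Junb, were lower in the knockout and none was higher, beside 1.92% of all genes called lower and 1.45% called higher in the authors' deposited table. The median over the 10 genes was -0.29 against 0.01 over 13638 genes. Under Bonferroni adjustment of the deposited p-values only Fosb passed (1 of 10), and with Benjamini-Hochberg adjustment over genes at or above a mean log2 CPM of 1, Atf3 (lower) and Batf (higher) passed as well, making 5. Heart muscle markers moved with these genes: 13 of 18 were lower and none higher in the authors' deposited table, with a summed level of 378 CPM in KO_noVILI and 973 CPM in WT_noVILI. Neutrophil markers summed to 267 CPM in KO_noVILI and 250.01 CPM in WT_noVILI, with 1 of 20 higher. B and T cell markers were lower for 7 of 20 genes and higher for none by the authors' deposited table, with 294 CPM in KO_noVILI and 353 CPM in WT_noVILI. The part of the tissue and cells sampled in the lower AP-1 levels was not tested.

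**Figure D2:**
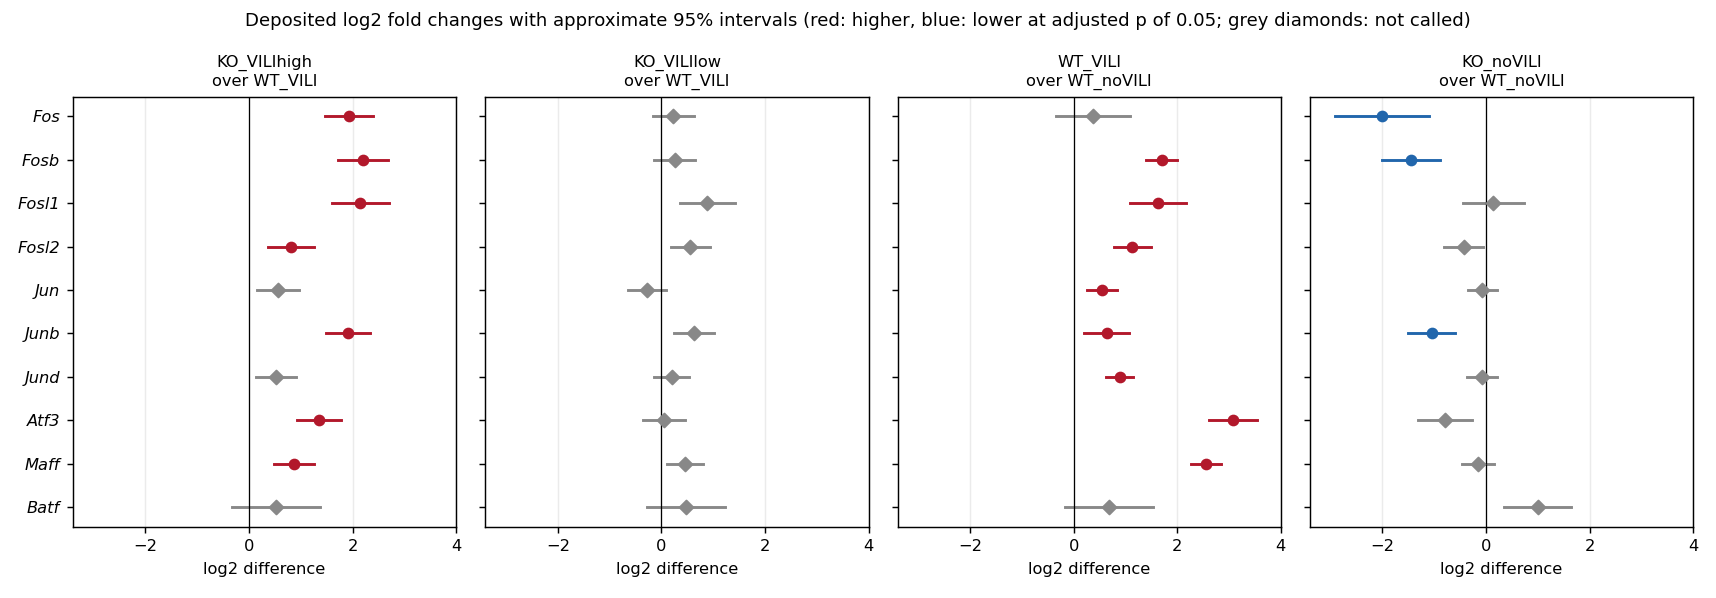
Log2 fold changes of the 10 genes (rows) in the authors' 4 deposited comparisons (columns), with approximate 95% intervals recovered from the deposited p-values; red marks genes higher and blue genes lower at a deposited adjusted p of 0.05, grey diamonds the rest. The column of KO_VILIlow over WT_VILI holds 0 called genes, while Atf3 and Maff stand farthest right in WT_VILI over WT_noVILI at 3.08 and 2.55.

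Contrasts that no table gives were derived by adding and subtracting the deposited fold changes, with summed variances and adjustment over all genes tested. Between the knockout groups, Fos, Fosb, Junb and Atf3 were higher in KO_VILIhigh than in KO_VILIlow, 4 of 10 genes beside 0.144% of all genes called higher (19 of 13222). The derived log2 differences were 1.70 for Fos (SE 0.31, adjusted p = 0.000155), 1.95 for Fosb (SE 0.32, adjusted p = 1.33e-05), 1.29 for Junb (SE 0.29, adjusted p = 0.0123) and 1.30 for Atf3 (SE 0.30, adjusted p = 0.0123). Fosl1 stood at 1.26 (95% interval 0.50 to 2.03, adjusted p = 0.309) and Jun at 0.85 (0.30 to 1.39, adjusted p = 0.51). Fosl2 at 0.25 (-0.33 to 0.84), Jund at 0.33 (-0.19 to 0.85), Maff at 0.41 (-0.11 to 0.93) and Batf at 0.05 (-1.08 to 1.18) had intervals that include 0. The spread of WT_VILI is counted here although this group cancels. With it taken out, on the untested assumption that the groups have equal spread, Fosl1 and Jun passed too, for 6 genes. The share of all genes called in that setting is not given here. At an adjusted p of 0.01 only Fos and Fosb passed.

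Within the knockout, ventilation went with higher levels of 9 of the 10 genes where injury was high and of 8 where it was similar to wild type, beside 2.32% and 2.07% of all genes called higher. In KO_VILIhigh over KO_noVILI the derived log2 differences were highest for Fosb at 5.34 (SE 0.41, adjusted p = 1.92e-35), Atf3 at 5.22 (SE 0.41, adjusted p = 6.54e-33) and Fos at 4.32 (SE 0.63, adjusted p = 1.76e-09). Fosl1 at 3.64, Junb at 3.60 and Maff at 3.58 followed, then Fosl2 at 2.38, Jund at 1.49 and Jun at 1.19, all called. In KO_VILIlow over KO_noVILI the order was Atf3 at 3.92, Fosb at 3.39, Maff at 3.17, Fos at 2.62, Fosl1 at 2.38, Junb at 2.31, Fosl2 at 2.13 and Jund at 1.16, all called. Jun, at 0.34 there (95% interval -0.21 to 0.89, adjusted p = 0.98), was called in the high-injury contrast alone, and Batf passed in neither, at 0.20 with high and 0.15 with low injury. A difference between these 2 lists of calls is tested by the contrast of KO_VILIhigh with KO_VILIlow above. Neutrophil markers were higher for 9 of 14 genes tested with high injury and 6 of 14 with low injury, heart muscle markers for 2 and 12 of 16, and endothelial markers were lower for 4 of 20 in both contrasts. B and T cell markers were higher for 1 of 18 with high injury and lower for 3 of 16 with low injury, and the part of these cells in the AP-1 differences was not tested. The share of all genes called lower in these contrasts is not given here, so the counts of lower markers cannot be set against it. The unventilated knockout level enters every value, so the low Fos, Fosb and Junb levels in KO_noVILI are part of these differences. The spread of WT_VILI and WT_noVILI is counted in these SEs although both groups cancel, so the intervals are wide and a missing call is weak evidence.

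The genotype difference (knockout minus wild type, log2) was larger with than without ventilation for 7 of the 10 genes in the high-injury group and for 4 in the low-injury group, beside 1.14% and 0.901% of all genes. In the high-injury contrast these were Fos, Fosb, Fosl1, Fosl2, Junb, Atf3 and Maff, and in the low-injury contrast Fos, Fosb, Fosl2 and Junb. For Fos the difference of differences was 3.95 (95% interval 2.93 to 4.96) with high injury and 2.25 (1.26 to 3.23) with low injury. In the low-injury group, where no gene of the 10 was called against WT_VILI, the difference of differences of Fos, Fosb and Junb draws more on the unventilated genotype difference (-2.02, -1.44 and -1.05 in the authors' deposited table) than on the ventilated one (0.23, 0.25 and 0.63). For Fosl2, also called in this contrast, the ventilated genotype difference was 0.56 and the unventilated one -0.43 in the authors' deposited tables. This contrast shares no cancelling group, so its test is not conservative.

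The differences of differences stand beside heart muscle markers that were larger for 12 of 16 genes with high injury and 16 of 16 with low injury, and their part was not tested.

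**Figure D3:**
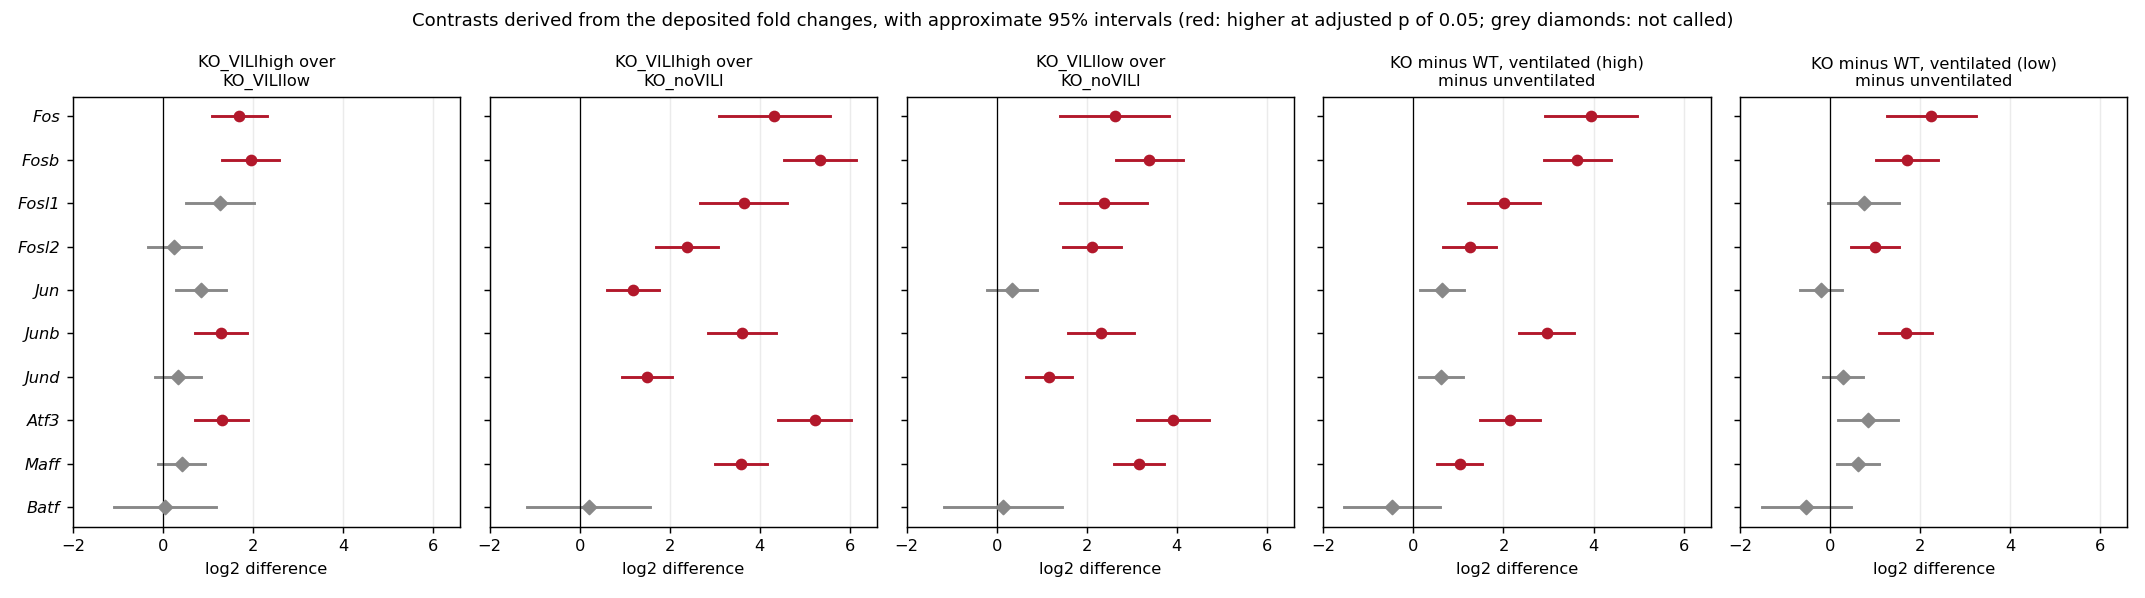
Derived log2 differences of the 10 genes with approximate 95% intervals, for 3 contrasts among knockout groups and 2 differences of the genotype difference with and without ventilation; red marks genes called at an adjusted p of 0.05, grey diamonds the rest. Fos, Fosb and Junb are called in all 5 columns, Batf in none.

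Genes around AP-1 in the pathway were taken from lists drawn up beside the member list. Of 36 kinases and factors that act upstream of AP-1, 1 was higher and none lower in KO_VILIhigh over WT_VILI in the authors' deposited table. Beside it, 1.13% of all genes were called higher and 0.435% lower. The gene was Srf, which encodes serum response factor, at 0.73 (SE 0.20, adjusted p = 0.0225, edgeR). In WT_VILI over WT_noVILI 4 were higher and 4 lower by the authors' deposited table, 11.1% each, beside 4.85% and 4.23% of all genes. Among them were Srf at 0.90, Map2k3, an activating kinase of p38, at 0.79 and Mapkapk2, a kinase downstream of p38, at 0.48. Mapk10, which encodes the JNK isoform best known from neurons and heart, was the 1 gene called in KO_VILIlow over WT_VILI, at 1.58, and Map3k11 the 1 called in KO_noVILI over WT_noVILI, at 0.47, both in the authors' deposited tables. Shares of all genes called higher in these comparisons were 0.676% and 1.45%. Medians of this list lay between -0.04 and 0.07 in the 4 tables, near those of all genes.

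Among 32 other AP-1 and related bZIP factors, 10 were higher and 8 lower in WT_VILI over WT_noVILI in the authors' deposited table, with a median of 0.00. This was 31.25% and 25% of the list, beside 4.85% and 4.23% of all genes. The members with the smallest p include genes known from circadian output rather than from AP-1: the repressor Nfil3 was at 3.32 and the activator Dbp at -1.67, with Cebpd, an acute phase factor, at 1.29 in the authors' deposited table. In KO_VILIhigh over WT_VILI 2 were higher and 2 lower by the authors' deposited table, beside 1.13% and 0.435% of all genes. Hlf was at -1.37, Tef at -0.90 and Nfil3 at 0.98. None of the 32 was called in KO_VILIlow over WT_VILI by the authors' edgeR test, beside 0.676% of all genes higher and 0.296% lower. In KO_noVILI over WT_noVILI 1 was higher and 2 lower, beside 1.45% and 1.92% of all genes. Dbp was at -0.98, Tef at -0.59 and Nfil3 at 0.97 there in the authors' deposited table.

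Of 49 genes reported as AP-1 targets, 25 were higher and none lower in KO_VILIhigh over WT_VILI in the authors' deposited table, with a median of 1.20. Beside them, 1.13% of all genes were called higher and 0.435% lower. The 25 included the monocyte chemokine Ccl2 at 3.00, the cytokine Lif at 2.56 and the neutrophil chemokine Cxcl2 at 2.99. In WT_VILI over WT_noVILI 26 were higher and 1 lower by the authors' deposited table, beside 4.85% and 4.23% of all genes. Among them were Areg, which encodes an EGF receptor ligand, at 4.44, Ptgs2, which encodes cyclooxygenase-2, at 3.26 and F3, the coagulation initiator, at 2.61. In KO_VILIlow over WT_VILI, where no AP-1 gene of the 10 was called, 7 targets were higher and none lower, beside 0.676% and 0.296% of all genes. Among them were the metallothionein Mt2 at 1.53 and Lif at 1.49 in the authors' deposited table. In KO_noVILI over WT_noVILI 6 were higher and 2 lower by the authors' deposited table, beside 1.45% and 1.92% of all genes. The cell cycle inhibitor Cdkn1a was at 0.92, the phosphatase Dusp1 at -1.07 and the cyclin Ccnd1 at 0.67. Many of these genes also respond to NF-kB and other factors, and which factor acts on them was not tested.

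The 43 other immediate early genes, share Dusp1 and Ier3 with the target list. Of the 43, by the authors' deposited table, 27 were higher and 0 lower in KO_VILIhigh over WT_VILI, beside 1.13% and 0.435% of all genes. The neuronal plasticity gene Arc was at 2.53, the zinc finger factor Egr1 at 2.13 and Ier2 at 1.67. In KO_VILIlow over WT_VILI 6 were higher and none lower, beside 0.676% and 0.296% of all genes. Among them were the cytokine inhibitor Socs3 at 1.52, Arc at 1.095 and the kinase Pim1 at 0.90 in the authors' deposited table. In WT_VILI over WT_noVILI 24 were higher and 1 lower, beside 4.85% and 4.23% of all genes. Among them were the EGF receptor inhibitor Errfi1 at 2.03, the kinase Plk3 at 2.21 and the matricellular gene Ctgf at 1.68 in the authors' deposited table. In KO_noVILI over WT_noVILI 11 were lower and 1 higher, beside 1.92% and 1.45% of all genes. Among them were the antiproliferative gene Btg2 at -1.40, the matricellular gene Cyr61 at -1.66 and Egr3 at -1.74 in the authors' deposited table.

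**Figure D4:**
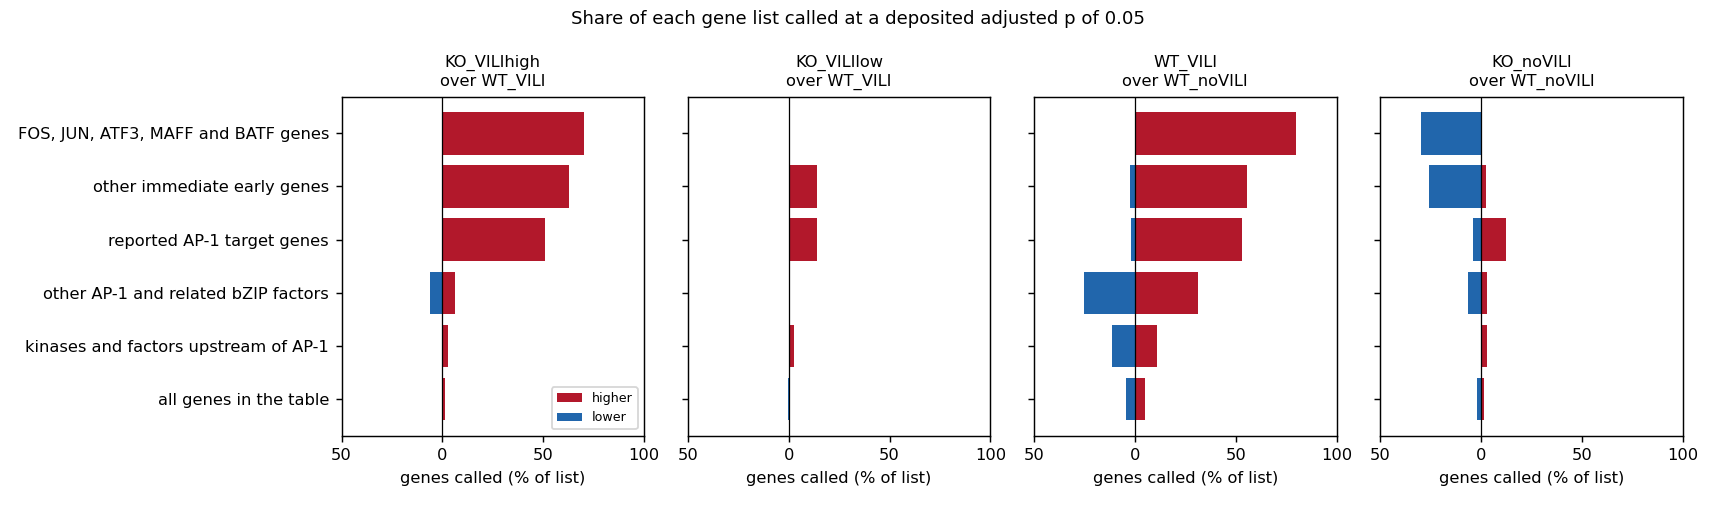
Percent of each gene list called higher (red, to the right of 0) or lower (blue, to the left) at a deposited adjusted p of 0.05 in the authors' 4 comparison tables, with all 21590 genes in the bottom row. The AP-1 genes reach 7 of 10 in KO_VILIhigh over WT_VILI and 8 of 10 in WT_VILI over WT_noVILI, while the upstream kinases reach 1 and 4 of 36 called higher.

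The genes nearest to Fos and to Atf3 were found by the distance between their 4 deposited log2 fold changes, over 12809 genes at or above a mean log2 CPM of 1 in every table and with the 10 members left out; the 4 comparisons share groups, and the distances are a description. Nearest to Fos were Egr1 (distance 0.53), Nr4a1 (0.57), Cyr61 (0.72), Egr3 (0.75) and Plin1 (0.85). The first 4 are immediate early genes, and Plin1 encodes the lipid droplet protein perilipin of fat cells. Among the members Junb, at 1.08, and Fosb, at 1.47, were the nearest to Fos, and Atf3 was at 3.03. Nearest to Atf3 were Ptgs2 (0.67), the matricellular gene Thbs1 (0.83), the neutrophil gene Retnlg (0.96), F3 (1.00) and Ccrn4l (1.00), and among the members Maff at 1.04. The values behind these distances in the authors' deposited tables, for KO_VILIhigh over WT_VILI, KO_VILIlow over WT_VILI, WT_VILI over WT_noVILI and KO_noVILI over WT_noVILI in that order, were 2.13, 0.54, 0.73 and -2.14 for Egr1, and 0.82, -0.18, 3.26 and -0.50 for Ptgs2.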

How the data were processed

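RNA of whole mouse lungs was sequenced in 5 groups, each in duplicate per the design text. Per the submitters' processing notes, reads were aligned with Bowtie 1.1.2 to mm9, and R 3.0.1 and edgeR were used; the count method, gene filter and test settings are not given in the sources used here. The authors deposited 4 comparison tables with a log2 fold change, a log2 mean CPM, a p-value and an adjusted p-value per gene, per the file headers, which do not name the log base; the authors' edgeR writes base 2 by convention, which was taken here. Columns of values per library numbered 0, so the depth per library is unknown and no test on counts or over libraries could be made. The tables named for ventilated knockouts were read as comparisons with WT_VILI, and the WT_VILI levels rebuilt from 3 tables then differed by at most 0.21 log2.

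Group levels were computed from fold change and mean CPM, and SEs from fold change and p-value by the normal quantile. The 5 derived contrasts add and subtract deposited fold changes, sum variances and apply Benjamini-Hochberg adjustment over genes at or above a mean log2 CPM of 1. Genes with a deposited fold change of exactly 0 were left out of derived contrasts. Chromosomes came from 21534 Entrez identifiers matched to RefSeq. The 10 members, the 11 lists with 284 entries, the tests and the alternatives were chosen with earlier results of these data known. Named genes are the members, Cldn4, up to 3 called genes with the smallest p of each of the lists described, and the 5 nearest genes to Fos and to Atf3; Xist, Ddx3y, Mpo, Elane and Prtn3 were named after their values were seen. A planned search of member proteins was not run, as no protein sequence was used here. Scripts ran under Python 3.11.15 with pandas 2.3.3, numpy 2.4.6 and scipy 1.17.1, and plots were drawn with matplotlib 3.10.9.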

Additional observations from a re-analysis of the deposited data

Results flagged for a closer look

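The knockout minus wild type difference was not the same with and without ventilation for 7 of the 10 genes, by an approximate test of the difference between the differences. Of all genes tested, 1.14% were called larger with high injury and 0.901% with low injury. By Xist and Ddx3y, ventilated and unventilated lungs also differed in sex, so ventilation and sex cannot be told apart here. With high injury, the log2 difference of differences was 3.95 for Fos, 3.64 for Fosb, 2.01 for Fosl1, 1.25 for Fosl2, 2.96 for Junb, 2.14 for Atf3 and 1.02 for Maff, with adjusted p from 3.41e-18 for Fosb to 0.0073 for Maff. With injury similar to wild type it was 2.25 for Fos, 1.70 for Fosb, 0.99 for Fosl2 and 1.67 for Junb, with adjusted p from 1.37e-05 for Junb to 0.0283 for Fosl2. Of the genes not called with high injury, Jun stood at 0.64 (adjusted p = 0.277), Jund at 0.61 (adjusted p = 0.313) and Batf at -0.48 (adjusted p = 0.996). The high-injury and low-injury values share KO_noVILI, WT_noVILI and WT_VILI.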

How the results depend on the processing

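No replicate could be left out, and no paired analysis was possible because the tables hold no values per library. Alternatives other than the reading of the reference left 471 results with the same direction and call, while 25 lost and 4 gained a call. No direction turned, but all of these alternatives except centring on the median of all genes leave the fold changes as they are. Under Bonferroni adjustment 1 member was called in KO_noVILI over WT_noVILI (3 as reported), 2 in KO_VILIhigh over KO_VILIlow (4) and 2 in the low-injury difference of differences (4). An adjusted p of 0.01 also left 2 in KO_VILIhigh over KO_VILIlow. A log2 fold change of at least 1 left 5 of 8 in WT_VILI over WT_noVILI. Adjustment over genes at or above a mean log2 CPM of 1 raised the count in KO_noVILI over WT_noVILI to 5, since fewer genes were tested. Reading both ventilated knockout tables as comparisons with WT_noVILI, which the rebuilt levels go against, gave 4 called members for KO_VILIhigh over WT_VILI (2 higher and 2 lower) and 5 for KO_VILIlow over WT_VILI (all lower). Directions then reversed in KO_VILIhigh for Fosl2 (-0.32), Jund (-0.36), Atf3 (-1.73), Maff (-1.68) and Batf (-0.16), and in KO_VILIlow for Fos (-0.14), Fosb (-1.44), Fosl1 (-0.75), Fosl2 (-0.57), Junb (-0.014), Jund (-0.69), Atf3 (-3.03), Maff (-2.09) and Batf (-0.21). This reading subtracts the WT_VILI over WT_noVILI fold change, which was positive for all 10 genes. The depth behind each gene is unknown, and the SE recovered from the authors' deposited tables reached 0.46 for Fos and 0.43 for Batf.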

Other observations

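Markers of further cell types in the same lungs were counted in the same way. Beside these markers, 1.13% of all genes were called higher and 0.435% lower in KO_VILIhigh over WT_VILI. In KO_VILIlow over WT_VILI these shares were 0.676% and 0.296%, and in WT_VILI over WT_noVILI 4.85% and 4.23%. In KO_noVILI over WT_noVILI they were 1.45% and 1.92%. Alveolar epithelial markers were lower in 1 of 18 cases in KO_VILIhigh over WT_VILI, the alveolar type 2 gene Lamp3 at -0.66, and higher in 2 and lower in 1 in WT_VILI over WT_noVILI, where the type 1 gene Rtkn2 was at -0.99 and Pdpn at 0.65 in the authors' deposited tables. Alveolar macrophage markers were higher in 2 of 14 cases in KO_VILIhigh over WT_VILI, the scavenger receptor Marco at 2.05 and Chi3l3 at 1.27, and Marco was also higher in KO_noVILI over WT_noVILI, at 1.62, in the authors' deposited tables. Chi3l3 was also higher in KO_VILIlow over WT_VILI, at 1.36, and lower in WT_VILI over WT_noVILI, at -1.20, in the authors' deposited tables. B and T cell markers were lower in 7 of 20 cases in KO_VILIlow over WT_VILI and in 7 of 20 in KO_noVILI over WT_noVILI, with Cd79a at -1.60, in the authors' deposited tables. Their summed level was 172.7 CPM in KO_VILIlow and 284 CPM in WT_VILI, and 294 CPM in KO_noVILI and 353 CPM in WT_noVILI. Red blood cell markers were higher in 4 of 9 cases in KO_VILIhigh over WT_VILI, with the heme synthesis gene Alas2 at 2.26, and lower in 4 of 9 in WT_VILI over WT_noVILI, with Hbb-bs at -1.92, in the authors' deposited tables.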
